A study of Arabidopsis thaliana with 14 samples.

Results

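The genes described here were lower in ibm1-1 than in the wild type Col-0 in plants grown in soil, and higher in ibm1-1 than in Col-0 in seedlings grown in sterile medium. They were chosen by these values, as CPM, the count of a gene divided by all counts of its library and scaled to a total of 1000000. A gene had to be listed in both experiments with a mean CPM of 2 or more in each. Its mean log2(CPM + 0.5) had to be lower in ibm1-1 by at least 0.6 in soil and higher by at least 0.6 in medium, and the genotypes could not overlap in either experiment. Of 17210 genes above the CPM minimum in both experiments, from 21912 listed in both, 65 met this rule. After 9 genes of the JAZ, LOX, AOC, CML, EXLA, WRKY, TCH4 and PHI-1 names were set aside, 56 remained. Since the genotype differences chose these genes, their values are given as a description. Test calls among them are counted below but are not evidence about them.

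Messenger RNA was sequenced from Arabidopsis thaliana. Both experiments compared Col-0 with ibm1-1, a loss-of-function allele of IBM1, the demethylase that removes methyl groups from lysine 9 of histone H3. In soil there were 3 libraries of each genotype, from whole seedlings that spent 5 days on plates and then 10 days in soil. In sterile medium there were 2 libraries of each genotype, from seedlings of 7 days. No treatment was applied, and a single mutant allele stands for the loss of IBM1. The experiments differed in growth and age and possibly in read processing, on which the sources differ, and these cannot be told apart here, and levels set side by side across them are descriptions.

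Some of these genes belong to known responses of plants to their surroundings, and 11 of the 56 were in a response list. Touch, wounding, cold and elicitors of immunity raise transcripts of ethylene response factors, of enzymes that loosen or rebuild xyloglucan in the cell wall, and of jasmonate metabolism. In the cold response, CBF factors bind the dehydration-responsive element (DRE) in promoters of COR genes, whose products protect membranes. In phosphate starvation, the factor PHR1 raises genes for phosphate uptake, for lipids without phosphorus, and for RNAs that bind the microRNA miR399. These pathways also answer to light, time of day and age.

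The libraries held 19957585 to 27001069 counts in soil and 18260809 to 21411230 in medium. IBM1 itself stood at 24.1 to 25.2 CPM in Col-0 and 19.3 to 20.6 in ibm1-1 in soil, and at 24.9 to 27.9 and 17.03 to 17.11 CPM in medium. The summed level of 5 leaf photosynthesis markers was 36575 to 38215 CPM in Col-0 and 34147 to 39044 in ibm1-1 in soil, and 26101 to 27878 and 23836 to 24972 in medium. The 9 root markers listed in soil summed to 554 to 573 CPM in Col-0 and 670.3 to 728 in ibm1-1, and all 10 summed to 2769 to 2900.5 and 3004 to 3604 CPM in medium. Guard cell markers summed to 46.9 to 50.8 CPM in Col-0 and 37.2 to 41.0 in ibm1-1 in soil, and to 50.9 to 60.6 and 31.8 to 37.6 in medium. Seed markers summed to at most 0.164 CPM in Col-0 in soil, with 2 or 3 of 4 genes at 0, and to 47.3 to 55.0 CPM in ibm1-1, while in medium they summed to 0.986 to 2.91 CPM over all libraries. Floral markers summed low and in the order of the members, to 5.63 to 6.36 CPM in Col-0 and 2.66 to 3.29 in ibm1-1 in soil and to 1.96 to 2.66 and 7.89 to 7.95 in medium, with 4 of 5 genes listed in soil and at most 1 gene at 0 in a library. The genes behind the 2 orders differed. In soil AP1, PI and AG fell by edgeR (log2 fold changes of -5.49, -1.93 and -1.28), with AP1 at 1.84 to 2.15 CPM in Col-0 and at most 0.0811 in ibm1-1, while SEP3 had -0.03 (adjusted p = 0.898). In medium SEP3 rose, from 1.305 and 1.45 CPM to 6.75 and 6.63, and no other floral marker was above 0.934 CPM. Whether organ, flower or seed composition has a part in the results below was not tested. In whole seedlings, fewer cells of a type and less RNA per cell cannot be told apart.

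In soil the summed counts of the 56 genes made up 0.459% to 0.475% of the library in Col-0 and 0.227% to 0.235% in ibm1-1. In medium they made up 0.238% to 0.245% in Col-0 and 0.456% to 0.473% in ibm1-1. The likeness of soil-grown Col-0 and medium-grown ibm1-1 in these sums rested on MT2A, a metallothionein at 1213 and 1427 CPM in the latter. Without it the other 55 genes made up 0.414% to 0.426% in Col-0 and 0.197% to 0.205% in ibm1-1 in soil, and 0.156% to 0.163% and 0.330% to 0.335% in medium. The median member stood at 37.5 to 38.2 CPM in Col-0 and 13.6 to 14.4 in ibm1-1 in soil, and at 9.64 to 10.4 and 18.3 to 21.01 CPM in medium. The mean level in Col-0 was higher in soil than in medium for 51 of 56 members, and that in ibm1-1 was higher in medium than in soil for 44. Over all filtered genes these orders held for 34.8% and 55.6%. The choice of members favours both orders, so nothing is read from them.

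The median difference of the members was -0.97 on the log2(CPM + 0.5) scale in soil, with a range from -3.05 to -0.63, and 0.95 in medium, with a range from 0.61 to 2.80. Over all filtered genes the medians were 0.10 in soil and -0.03 in medium, so scaling by library totals placed the typical gene slightly higher in ibm1-1 in soil. Folds below come from this scale and understate changes of low genes. In soil 23 members were lower by at least 2-fold, in medium 27 were higher by at least 2-fold, and 11 did so in both. The study called a gene differentially expressed (DEG) above 2-fold at an adjusted p below 0.05. By this rule and edgeR's quasi-likelihood test, 34 of 56 members were lower calls in soil, where 2.39% of all genes tested were. In medium 26 of 56 were higher calls, where 5.53% of all genes tested were, and 15 were called in both, where 0.132% of the genes tested in both were. The rule used the same contrasts, so these counts are not evidence about the members.

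**Figure D1:**
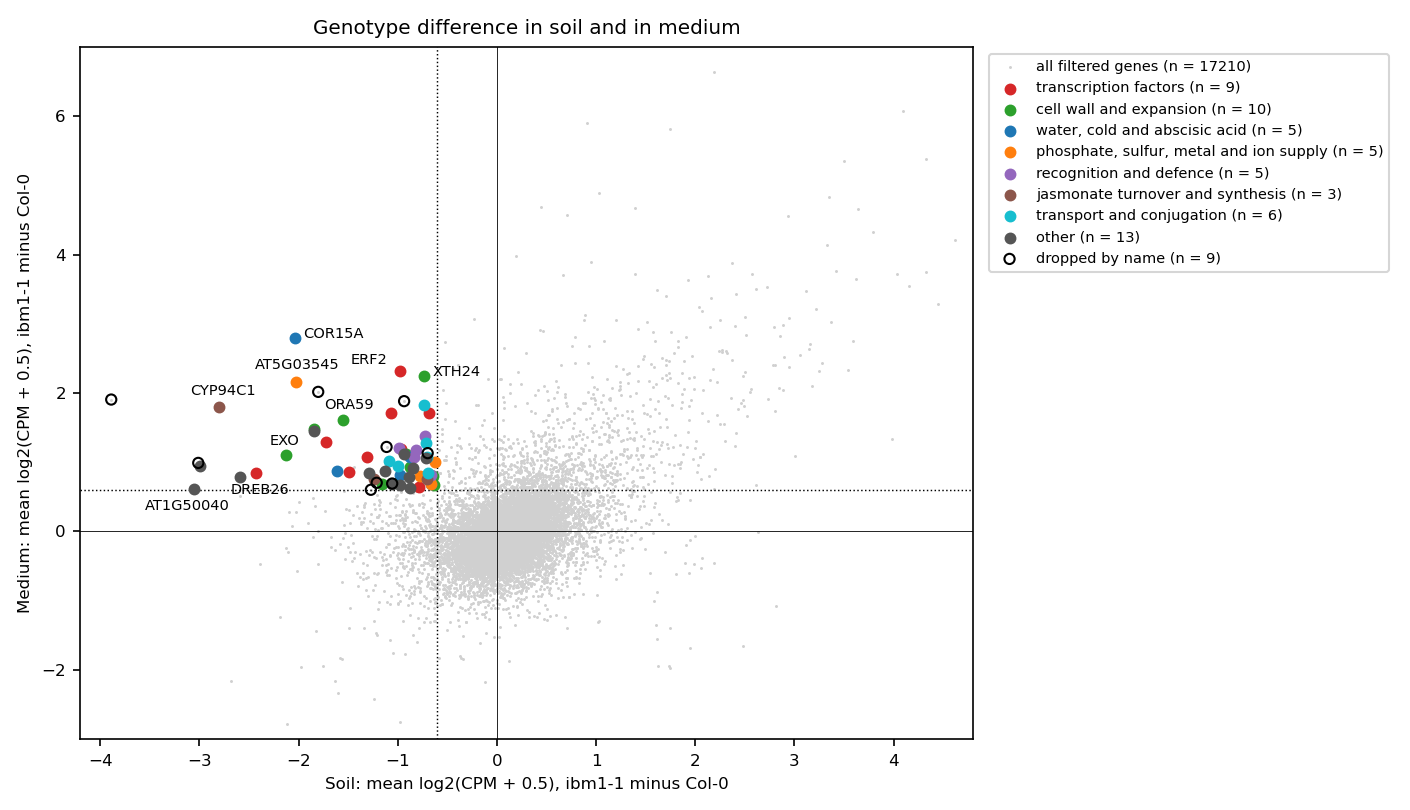
Each point is a gene, with the difference of ibm1-1 and Col-0 in mean log2(CPM + 0.5) in soil on the x axis and in medium on the y axis, dotted lines at -0.6 and 0.6, members coloured by role and the 9 genes set aside by name as open circles. The members fill the upper left field, while 589 genes passed the same thresholds as higher in both experiments.

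The opposite pattern was the less common one. By the same rule, 589 genes were higher in ibm1-1 in both experiments and 124 were lower in both. The 65 genes lower in soil and higher in medium made up 0.378% of the filtered genes, and 41 genes, 0.238%, were higher in soil and lower in medium. Just inside the threshold were AT1G50040 (-3.05 in soil and 0.61 in medium), MGD2 (-0.63 and 1.00) and AT2G27500 (-0.88 and 0.63). Just outside were AT3G19680 (-3.01 and 0.597), ANNAT4 (-0.97 and 0.59) and AT2G23100 (-0.59 and 1.17).

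**Figure D2:**
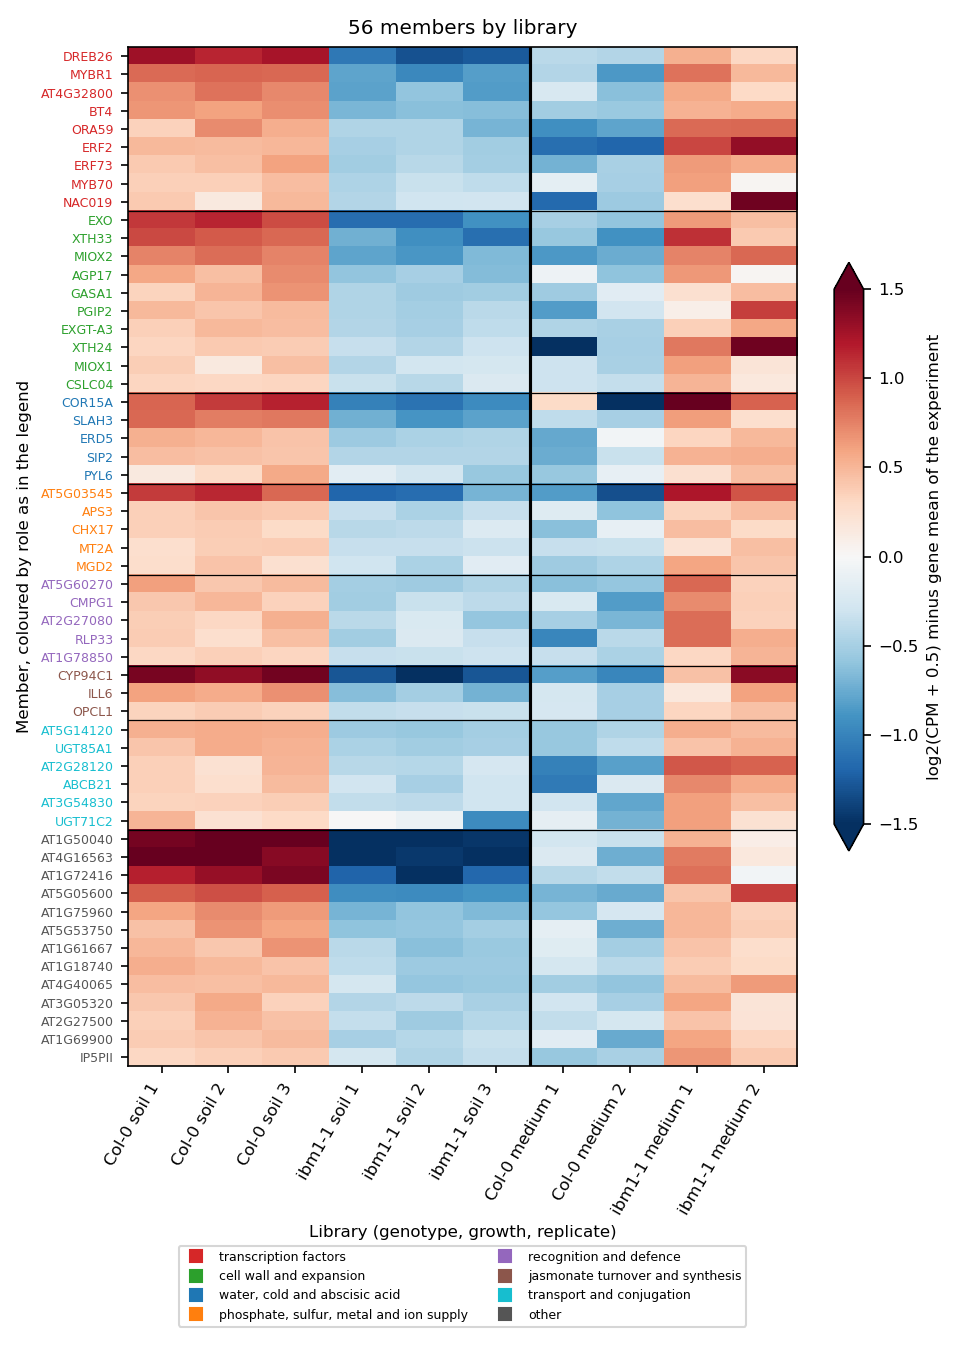
Rows are the 56 members grouped by role, columns are the 10 libraries, and colour is log2(CPM + 0.5) minus the mean of the gene over the libraries of that experiment. By the rule, every Col-0 library lies above every ibm1-1 library for each member in soil and below it in medium, where replicates of a genotype differ more.

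Transcription regulators were 9 of the members, and 3 of them are ethylene response factors of the response list. ERF2, an activator that binds the GCC-box of defence genes, stood at 65.9, 65.7 and 66.4 CPM in Col-0 and at 33.2, 34.4 and 32.7 CPM in ibm1-1 in soil. In medium it was at 2.71 and 2.57 CPM in Col-0 and at 13.6 and 17.03 CPM in ibm1-1. It was thus 1.96-fold lower in the mutant in soil and 5.01-fold higher in medium, the largest medium difference among the factors. ORA59, which joins jasmonate and ethylene signals in defence, was at 9.74, 12.7 and 11.2 CPM in Col-0 and at 5.36, 5.395 and 4.44 CPM in ibm1-1 in soil. Its medium libraries were at 3.06 and 3.41 CPM in Col-0 and at 11.7 and 11.8 CPM in ibm1-1, so that medium-grown ibm1-1 resembled soil-grown Col-0. ERF73, also named HRE1 and known from low oxygen, was 1.96-fold lower in soil and 2.28-fold higher in medium.

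DREB26, a DREB factor of the AP2/ERF family, had the largest soil difference of the 9 regulators. It stood at 31.4, 28.6 and 30.7 CPM in Col-0 and 5.79, 4.83 and 5.03 CPM in ibm1-1 in soil, 5.39-fold lower. In medium all 4 libraries were low, at 3.66 and 3.55 CPM in Col-0 and 7.48 and 6.30 CPM in ibm1-1. MYBR1, also named MYB44 and known from abscisic acid signalling, was at 132, 136 and 134 CPM in Col-0 and at 42.2, 37.4 and 41.1 CPM in ibm1-1 in soil. In medium it was at 58.8 and 44.0 CPM in Col-0 and at 141 and 112 CPM in ibm1-1. Its relative MYB70 was near the threshold, at -0.79 and 0.65. BT4, a BTB and TAZ domain protein, was 2.48-fold lower in soil and 2.11-fold higher in medium. NAC019, a stress-responsive NAC factor, stood at 0.703 and 1.35 CPM in Col-0 and at 2.72 and 6.95 CPM in ibm1-1 in medium, with a gap between the mutant replicates wider than that between their lower value and Col-0.

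Genes of the cell wall and of cell expansion were 10 members, with a median difference of -0.96 in soil and 1.02 in medium. MIOX2, an oxygenase that turns inositol into glucuronic acid for wall sugars, stood at 28.1, 29.9 and 28.2 CPM in Col-0 and at 9.35, 8.80 and 10.3 CPM in ibm1-1 in soil. In medium its values were 21.7 and 23.6 CPM in Col-0 and 67.1 and 73.2 CPM in ibm1-1. The Col-0 levels of the 2 experiments were close, and the mutant lay below them in soil and above them in medium, 2.94-fold and 3.05-fold. MIOX1, of the same family, differed less, at -0.65 and 0.81. EXO, a wall protein that promotes growth under brassinosteroid, was at 90.2, 95.8 and 85.2 CPM in Col-0 and 19.2, 19.2 and 22.7 CPM in ibm1-1 in soil, and at 25.3 and 23.7 against 56.7 and 49.6 CPM in medium.

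The xyloglucan enzymes XTH24, XTH33 and EXGT-A3, which cut and rejoin the chains that tie cellulose together, did not share a size of change. XTH24 was at 127, 133 and 133 CPM in Col-0 and at 79.7, 74.6 and 82.0 CPM in ibm1-1 in soil. In medium it stood at 21.5 and 51.7 CPM in Col-0 and at 128 and 203 CPM in ibm1-1. The replicates of a genotype thus stood far apart in medium, and with each medium library left out in turn the difference of 2.25 ranged from 1.63 to 2.87. XTH33 was 3.59-fold lower in soil and 2.79-fold higher in medium, and EXGT-A3 was 1.84-fold lower and 1.92-fold higher. CSLC04, which builds the xyloglucan backbone, had the smallest differences of the 10, at -0.64 and 0.66. The rest were PGIP2, an inhibitor of fungal pectinases (-0.91 and 1.12), GASA1, a gibberellin-regulated peptide (-1.01 and 0.70), and AGP17, an arabinogalactan protein (-1.16 and 0.68).

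**Figure D3:**
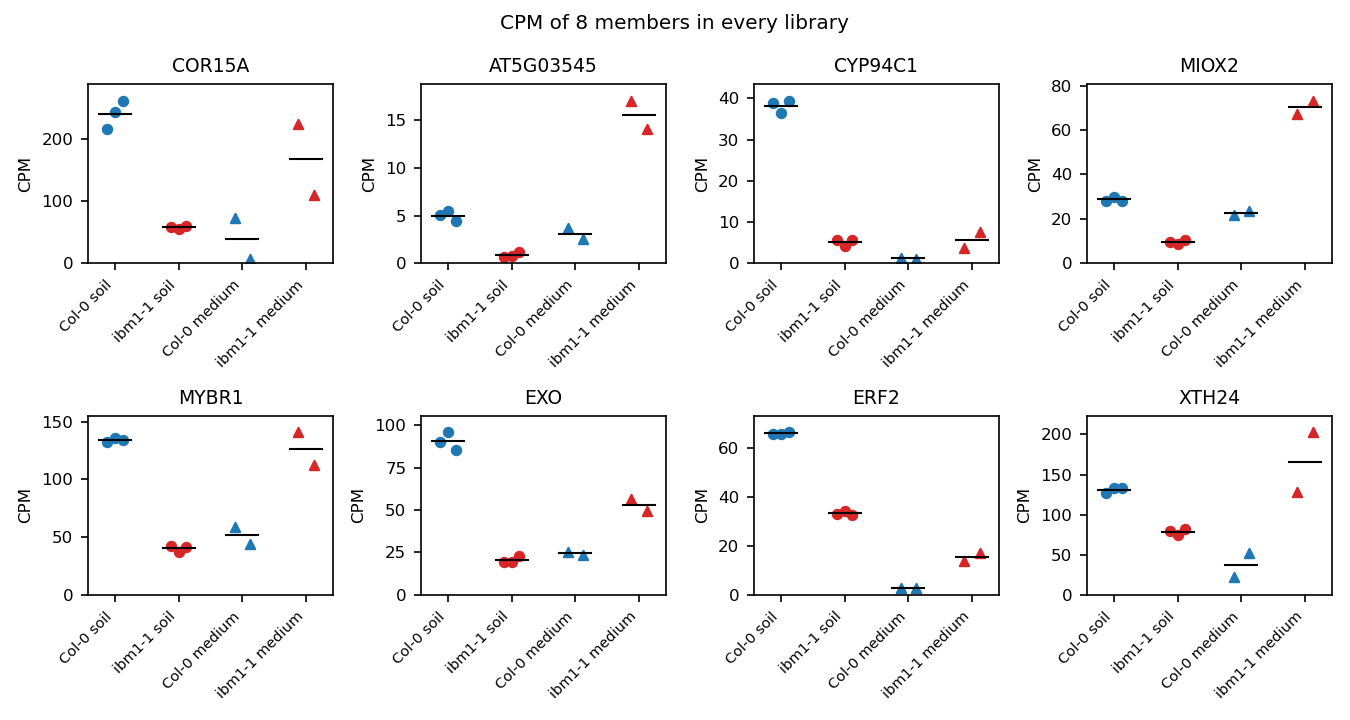
The y axis of each panel is CPM, starting at 0, for 8 members, with circles for soil libraries, triangles for medium libraries and black lines for group means. COR15A in medium shows the widest spread within a genotype, with Col-0 at 72.8 and 6.54 CPM, while MIOX2, EXO and ERF2 have tight Col-0 values in both experiments.

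COR15A, a cold-induced protein that guards chloroplast membranes, led the members by the smaller of its differences. In soil it stood at 216, 244 and 263 CPM in Col-0 and at 58.3, 54.7 and 61.0 CPM in ibm1-1, 4.12-fold lower. In medium it stood at 72.8 and 6.54 CPM in Col-0 and at 226 and 110.4 CPM in ibm1-1, 6.97-fold higher. The Col-0 replicates in medium differed 11.1-fold, so the size of the medium difference depends on which is used. It was 1.11 on the log2 scale without Col-0 replicate 2 and 4.49 without Col-0 replicate 1. Replicate 1 was above replicate 2 in both genotypes for 7 of the 8 cold-list genes with a mean CPM of 2 or more in medium, COR15A included. Of these 7, COR47 differed by only 1.002-fold in Col-0 and 1.08-fold in ibm1-1. Among all filtered genes, replicate 2 was the higher for 55.4% in Col-0 and 48.8% in ibm1-1. Between libraries of the same number, COR15A was 3.10-fold higher in ibm1-1 at number 1 and 16.9-fold at number 2. The labels do not say that a number marks a shared batch.

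In soil 6 of the 12 cold-list genes tested outside the members fell in ibm1-1, against 2.39% of all genes tested. They were COR47 (-2.23 on the log2 scale, SE 0.043), LTI78 (-2.22), COR15B (-1.56), KIN2 (-1.19), KIN1 (-1.04) and DDF1 (-2.80), of which COR47 stood at 865 to 891 CPM in Col-0 and 193 to 211 CPM in ibm1-1. DDF1 was very low, at 0.451 to 0.778 CPM in Col-0 and at most 0.251 CPM in ibm1-1. Of the CBF factors that drive COR genes, DREB1A, also named CBF3, rose by 1.13 in soil and CBF1 by 1.24, while CBF2 was not called (0.61). CBF1 stood at 1.25 to 1.63 CPM in Col-0 and 3.35 to 4.42 CPM in ibm1-1. In medium edgeR called 0 of 7 cold-list genes tested, 2 had an unadjusted p below 0.05, both lower in ibm1-1, and DESeq2 also called 0. COR47 stood at 446 and 445 CPM in Col-0 and at 378 and 350.4 CPM in ibm1-1 there, and the CBF genes were too low to test. COR15B, a close relative of COR15A, was at 97.0 and 18.03 CPM in Col-0 and at 126 and 51.4 CPM in ibm1-1 in medium (log2 fold change 0.64, adjusted p = 0.507 by edgeR). Its genotypes overlapped, and as for COR15A the Col-0 replicates stood far apart. LTI78 was at 49.2 and 43.8 CPM against 65.9 and 48.5 CPM (0.32, adjusted p = 0.170).

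**Figure D4:**
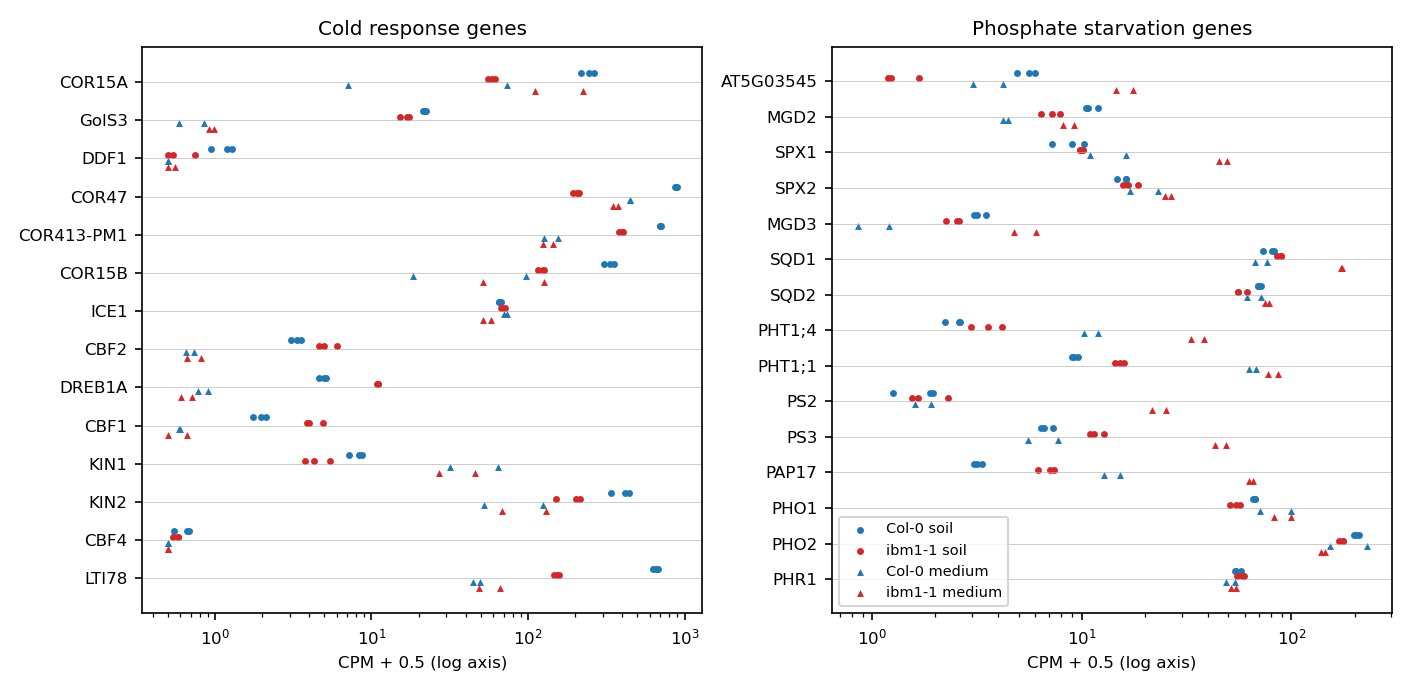
The x axis is CPM + 0.5 on a log axis for the cold-list genes on the left and phosphate starvation genes on the right, with circles for soil libraries, triangles for medium libraries, blue for Col-0 and red for ibm1-1. COR15A and AT5G03545 show the genotypes in opposite order in the 2 experiments, while COR47 and LTI78 are far apart in soil only, and PS2 is far apart in medium only, at 1.104 and 1.40 CPM against 24.6 and 21.1 CPM.

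The remaining members linked to water and cold were 4 genes. SLAH3, an anion channel, was 3.06-fold lower in soil and 1.83-fold higher in medium. SIP2, which breaks down raffinose, stood at 381, 375 and 368 CPM in Col-0 and at 204, 204 and 205 CPM in ibm1-1 in soil, and at 169 and 226 CPM against 408 and 416 CPM in medium. The replicates of ibm1-1 were close in both experiments. ERD5, a proline dehydrogenase, differed by -0.98 and 0.81, and PYL6, an abscisic acid receptor, by -0.67 and 0.69.

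AT5G03545, annotated as expressed in response to phosphate starvation and also named AT4 and ATIPS2, had the second largest of the smaller differences. It stood at 5.11, 5.46 and 4.42 CPM in Col-0 and at 0.686, 0.730 and 1.17 CPM in ibm1-1 in soil, 4.07-fold lower. In medium it stood at 3.71 and 2.52 CPM in Col-0 and at 17.1 and 14.1 CPM in ibm1-1, 4.48-fold higher. Its levels are low, from 16 counts in the lowest soil library to 326 in the highest medium library. RNAs of this family are known to bind miR399 without being cut, because extra bases sit opposite the cleavage position. A stretch of 24 bases that pairs with miR399 in this way was found in the RefSeq transcript, at chr5:895149-895172 on the plus strand of TAIR10.1, inside the annotated coding sequence. It is shown with the mature miR399b from chr1:23345387-23345407 on the minus strand and miR399f from chr2:14445084-14445104 on the plus strand, which share a seed. Capitals mark the bases of the site that can pair with miR399b, G with T included, and bases 2 to 8, the seed, of each miRNA, all in DNA letters.
AT5G03545 site: TtGGGCAACTTcgaTCCTTTGGCA
miR399b: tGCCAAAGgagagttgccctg
miR399f: tGCCAAAGgagatttgcccgg
Of the 21 bases of miR399b 20 can pair with the site, with the 3 bases cga of the site left unpaired in its middle. The miRNAs themselves were not measured.

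Other phosphate starvation genes, picked after AT5G03545 had been seen and so given as values only, went both ways in soil. In medium PS2, a phosphatase, was at 1.104 and 1.40 CPM in Col-0 and at 24.6 and 21.1 CPM in ibm1-1, and in soil the genotypes overlapped at 0.752 to 1.80 CPM. PAP17, an acid phosphatase, was at 12.2 and 14.7 CPM against 65.0 and 62.3 CPM in medium, and was also higher in ibm1-1 in soil, at 5.71 to 6.87 CPM against 2.56 to 2.83 CPM. SPX1, an inhibitor of PHR1, was at 10.5 and 15.8 CPM against 48.9 and 44.4 CPM in medium. In soil its genotypes overlapped, at 6.74 to 9.75 CPM in Col-0 and 9.27 to 9.65 CPM in ibm1-1. PHR1 itself differed by 0.05 in medium and 0.06 in soil. Of the 13 such genes listed in both experiments, more were higher in ibm1-1 in both with no overlap of genotypes than had the order of the members. Those higher in both were PAP17, PS3 (0.79 in soil and 2.81 in medium), PHT1;4 (0.51 and 1.68), PHT1;1 (0.71 and 0.33) and SQD1 (0.16 and 1.28). Lower in soil and higher in medium with no overlap were MGD3, which makes galactolipid, at -0.39 and 2.40, and SQD2, which makes sulfolipid, at -0.29 and 0.21. PHO2 was lower in both (-0.23 and -0.40). MGD2, a relative of MGD3, was a member, at 10.2, 11.4 and 9.99 CPM in Col-0 and at 6.74, 5.88 and 7.37 CPM in ibm1-1 in soil. The other members of ion and metal supply were APS3, an ATP sulfurylase (-0.77 and 0.80), CHX17, a cation exchanger (-0.68 and 0.75), and MT2A, a metallothionein, which stood at 448 to 491 CPM against 297 to 301 CPM in soil and at 819 and 823 CPM against 1213 and 1427 CPM in medium.

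With the JAZ and LOX genes set aside, 3 members were put in the jasmonate group by their RefSeq names. CYP94C1, a cytochrome P450 that oxidises the active hormone jasmonoyl-isoleucine, had the largest soil difference of any member put in a role group. It stood at 38.9, 36.4 and 39.4 CPM in Col-0 and at 5.53, 4.22 and 5.53 CPM in ibm1-1 in soil, 6.96-fold lower. In medium it was low in all libraries, at 1.305 and 1.12 CPM in Col-0 and at 3.82 and 7.67 CPM in ibm1-1. ILL6, a hydrolase of jasmonate conjugates, differed by -1.24 and 0.76, and OPCL1, a ligase of jasmonate synthesis, by -0.71 and 0.75. AT5G05600, annotated as an oxygenase that uses 2-oxoglutarate and iron, was entered in the jasmonate list under the name JOX2, which RefSeq does not give, so it was left out of the jasmonate group and of the list. It was at 58.0, 60.3 and 57.3 CPM against 15.7, 15.7 and 16.2 CPM in soil and at 15.3 and 14.7 CPM against 33.8 and 51.9 CPM in medium.

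Members linked to recognition and defence were 5 genes, with differences from -0.99 to -0.66 in soil and from 0.82 to 1.38 in medium. AT5G60270, a lectin receptor kinase, was at 17.3, 14.9 and 15.6 CPM against 7.72, 7.59 and 8.04 CPM in soil, and at 7.38 and 7.61 CPM against 21.6 and 14.9 CPM in medium. CMPG1, a ubiquitin ligase raised by elicitors in parsley and Arabidopsis, was 1.79-fold lower and 2.11-fold higher. RLP33, a receptor-like protein, was 1.65-fold lower and 2.61-fold higher. The level of AT1G78850, a mannose-binding lectin, is uncertain, because its transcript shares 91.2% of bases over 1394 aligned bases with that of AT1G78860 and reads may be split between them.

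Transport and conjugation made up 6 members. AT5G14120, a transporter of the major facilitator family, was at 543, 552 and 545 CPM in Col-0 and at 256, 252 and 263 CPM in ibm1-1 in soil, and at 88.3 and 95.8 CPM against 191 and 183 CPM in medium. The replicates of each group lay close together, and the fold was 2.12 in soil and 2.03 in medium. AT2G28120, of the same family, differed less in soil (-0.73) and more in medium (1.82). The others were the glycosyltransferases UGT85A1 (-0.999 and 0.95) and UGT71C2 (-0.69 and 0.84), the auxin transporter ABCB21 (-0.72 and 1.28) and the amino acid transporter AT3G54830 (-0.70 and 1.07).

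A further 13 members were put in no role group. The largest soil differences of all members were here and were not matched in medium. AT1G50040, of unknown function, was at 20.999, 21.9 and 24.1 CPM in Col-0 and at 2.102, 2.27 and 2.39 CPM in ibm1-1 in soil, 8.28-fold lower, and only 1.53-fold higher in medium. AT4G16563, an aspartyl protease, was 7.96-fold lower and 1.92-fold higher. AT1G72416, a DnaJ-domain protein, was 6.01-fold lower and 1.73-fold higher. AT4G40065 is annotated as a non-coding RNA (-0.93 and 1.11) and overlaps AT4G40063 on the other strand. AT5G53750, a CBS domain protein, differed by -1.13 and 0.88. IP5PII, a phosphatase that removes a phosphate from inositol phosphates, differed by -0.71 and 1.06.

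The 9 genes set aside by name held the largest soil difference under the rule, PHI-1 at -3.89, with 1.91 in medium. TCH4, known as a touch gene, was 8.07-fold lower in soil and 1.99-fold higher in medium, and WRKY18, a repressor of immune genes, was 3.49-fold lower and 4.05-fold higher. LOX4 and JAZ6 lie near members on chromosome 1, where ERF73, AT1G72416, JAZ6 and LOX4 follow each other with gaps of 15778, 13446 and 31950 bases and with 2, 3 and 8 other genes between them. Chromosome 1 held 18 of 56 members, 32.1%, against 26.2% of the filtered genes.

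Promoters of the members held known motifs about as often as those of all filtered genes, for most motifs. Promoters were taken from 250 bases before to 50 after the annotated start in TAIR10.1, on both strands, for all 56 members and for 17167 filtered genes. The G-box CACGTG was in 8 members, 14.3%, against 8.81% of all. The W-box, TTGACC or TTGACT, was in 30.4% against 32.5%, the DRE, GCCGAC or ACCGAC, in 8.93% against 9.90%, and the abscisic acid element, ACGTGTC or ACGTGGC, in 8.93% against 8.91%. The rapid stress response element CGCGTT was in 3.57% against 3.68%, the T/G-box AACGTG in 12.5% against 8.62%, the GCC-box GCCGCC in 3.57% against 2.70% and the heat shock element GAANNTTC in 16.1% against 11.2%. The evening element AAAATATCT was in 1.79% against 3.10%, the CCA1 element AAAAATCT in 3.57% against 8.35% and the TATA box TATAAA in 51.8% against 50.7%. A G-box can overlap an abscisic acid element by shared letters. These are letters in a window and no test was made. Stretches of 120 bases are shown for the cold gene, the phosphate gene and the 3 factors whose upstream bases held a DRE, G-box, W-box or abscisic acid element, which are in capitals. They lie at chr2:17712331-17712450 on the minus strand for COR15A, chr5:894457-894576 on the plus strand for AT5G03545, chr1:1882713-1882832 on the plus strand for ORA59, chr5:19172957-19173076 on the minus strand for ERF2 and chr1:19698489-19698608 on the minus strand for NAC019.
COR15A: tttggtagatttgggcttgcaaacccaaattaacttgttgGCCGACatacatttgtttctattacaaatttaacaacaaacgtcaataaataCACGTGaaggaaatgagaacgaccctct
AT5G03545: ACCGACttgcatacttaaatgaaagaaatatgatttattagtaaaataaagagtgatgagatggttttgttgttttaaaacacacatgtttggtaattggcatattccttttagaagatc
ORA59: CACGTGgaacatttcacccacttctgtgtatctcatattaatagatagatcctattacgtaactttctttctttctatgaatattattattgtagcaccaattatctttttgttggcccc
ERF2: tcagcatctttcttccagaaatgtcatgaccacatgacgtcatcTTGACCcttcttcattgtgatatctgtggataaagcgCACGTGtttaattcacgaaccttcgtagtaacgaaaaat
NAC019: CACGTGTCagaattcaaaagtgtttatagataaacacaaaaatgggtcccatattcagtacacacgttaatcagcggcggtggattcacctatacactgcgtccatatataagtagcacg
In COR15A the DRE shown begins 80 bases and the G-box 28 bases before the start. Another DRE of its promoter, at -142 from the start, lies outside the stretch shown.

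Replicates of the members agreed more closely in soil than in medium. The median absolute gap between replicates on the log2 scale was 0.07 to 0.10 for the members in soil, where all filtered genes had 0.07 to 0.09. In medium it was 0.23 for Col-0 and 0.25 for ibm1-1 among the members, and 0.15 and 0.12 among all filtered genes. The widest gap was that of COR15A in Col-0. Reads of 9 members may include reads of a gene on the other strand that overlaps them, MYBR1, BT4, AT5G14120 and ERF73 among them, since the strand setting of the counting is not given in the sources used here. MYBR1 also overlaps a gene on its own strand.

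Genes of the same pathways outside the members were counted by direction. The 13 response lists held 226 genes that were not members. Leaving out the members removes genes with this pattern from these counts, so a lack of the pattern here is not a result. In soil 32 of 212 tested fell and 38 rose in ibm1-1, 15.1% and 17.9%, where 2.39% and 5.87% of all genes tested did. In medium 1 of 208 tested fell and 38 rose, 0.481% and 18.3%, where 1.53% and 5.53% did. The lower calls in medium numbered 2 without Col-0 replicate 1, 3 without Col-0 replicate 2 and 7 without ibm1-1 replicate 2. The median log2 fold change of these genes was 0.07 in soil and 0.23 in medium. A negative fold change in soil with a positive one in medium was found for 48 of the 202 tested in both, while 17.9% of all genes tested in both had these signs.

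**Figure D5:**
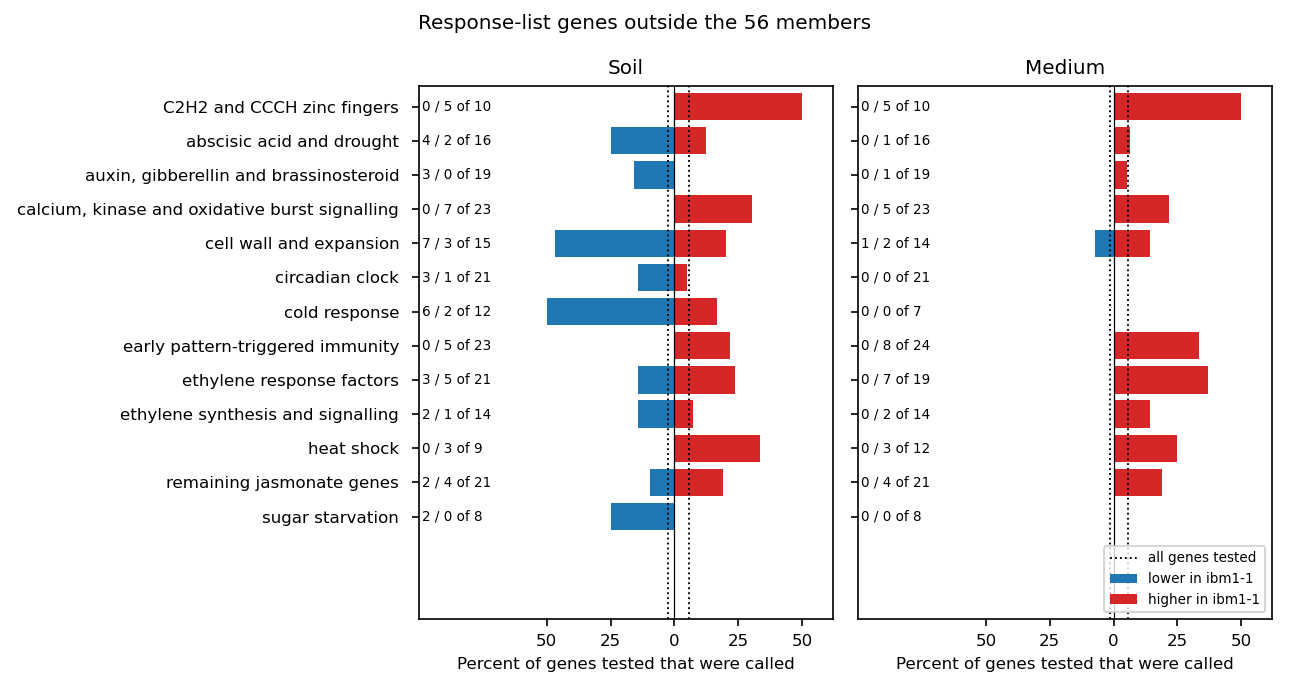
Bars give the percent of tested list genes outside the 56 members that were called lower (blue, left) or higher (red, right) in ibm1-1, with counts as lower / higher of tested at the left edge and dotted lines for all genes tested. Lower calls are frequent in the cold and cell wall lists in soil, with 6 of 12 and 7 of 15, and the only lower call in medium is 1 cell wall gene.

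By list, cell wall and expansion genes fell most often beside the cold genes in soil. Of 15 tested, 7 fell and 3 rose. Among those that fell were XTH25 (-2.41), EXL5 (-2.13), XTH15 (-1.76), XTH18 (-1.53) and EXL3 (-1.31), close relatives of XTH24 and EXO. Those that rose were EXPA8 (1.67), EXPA1 (1.48) and EXT4, and XTH19 (0.48) was not called. In medium 2 of 14 rose and 1 fell, EXPA8. There XTH15 (-0.71), XTH18 (0.26), EXL5 (0.47) and EXL3 (0.48) were not called, and XTH25 was too low to test. Ethylene response factors fell in 3 and rose in 5 of 21 in soil. There ABR1 fell by 2.45 and RRTF1 by 2.39, and RAP2.6 also fell (-2.58). Those that rose in soil were Rap2.6L (2.00), ERF1 (1.38), AT5G51190 (1.28), ERF5 (1.27) and ORA47 (1.18). Some were very low in soil. RAP2.6 stood at 1.00 to 1.04 CPM in Col-0 and 0.129 to 0.251 in ibm1-1, Rap2.6L at 0.246 to 1.00 and 2.43 to 3.56, and ERF1 at 0.148 to 0.351 and 0.544 to 0.892. In medium 7 of 19 factors rose. Of the 18 of these factors tested in both, 9 had a negative fold change in soil and a positive one in medium, against 17.9% of all genes tested in both. These are signs only, with ERF4 (-0.02), ERF11 (-0.03) and TEM1 (-0.08) near 0 in soil. None of these factors was called in opposite directions. Zinc finger factors rose in 5 of 10 in each experiment. Genes of calcium, kinase and oxidative burst signalling rose in 7 of 23 in soil and 5 of 23 in medium, and early immunity genes in 5 of 23 and 8 of 24. Jasmonate genes fell in 2 and rose in 4 of 21 in soil, and rose in 4 of 21 in medium. Abscisic acid and drought genes fell in 4 and rose in 2 of 16 in soil. Among those that fell were ERD10 (-1.62) and PYL4, a relative of PYL6 (-1.33), and those that rose were NCED3 (1.13) and HAI2 (1.07). In medium 1 of 16 rose, and ERD10 (-0.21) and PYL4 (0.23) were not called. Clock genes fell in 3 and rose in 1 of 21 in soil, auxin, gibberellin and brassinosteroid genes fell in 3 of 19, ethylene synthesis and signalling genes fell in 2 and rose in 1 of 14, sugar starvation genes fell in 2 of 8, and heat shock genes rose in 3 of 9. In medium heat shock genes rose in 3 of 12, ethylene synthesis and signalling genes in 2 of 14 and auxin, gibberellin and brassinosteroid genes in 1 of 19.

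Outside the members, 18 list genes were called in both experiments, and 16 of these rose in both. They included TAT3, a tyrosine aminotransferase raised by jasmonate (4.40 in soil and 7.51 in medium), FRK1, a receptor kinase of early immunity (2.47 and 4.38), MYB15 (2.55 and 3.40), CAX3, a vacuolar calcium exchanger (2.85 and 2.15), the calcium pumps AT3G22910 (2.66 and 2.16) and AT3G63380 (1.35 and 2.36), and CBP60G, a factor of salicylic acid synthesis (1.52 and 1.99). MPK11, ZAT7, ZAT6, SIB1, CNI1, VSP1, EXT4, Rap2.6L and AT5G51190 also rose in both. CYP94B3, a P450 that acts on the same hormone as the member CYP94C1, fell by 2.65 in soil (SE 0.32, adjusted p = 3.27e-08 by edgeR) and rose in medium by 1.38 (SE 0.28, adjusted p = 0.00769). It stood at 1.81, 1.75 and 1.35 CPM in Col-0 and at 0.300, 0.325 and 0.209 CPM in ibm1-1 in soil, under the CPM minimum of the rule. EXPA8, an expansin, rose by 1.67 in soil and fell by 1.48 in medium.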

How the data were processed

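RNA was sequenced from Col-0 and ibm1-1 seedlings, with 3 libraries per genotype in soil and 2 in sterile medium. The deposited values were counts per gene without normalization, made by the authors on TAIR10. The study's methods name SolexaQA, cutadapt, TopHat2 and HTSeq-count for soil and Trimmomatic, HISAT and htseq-count for medium. The submitters' processing notes instead name Trimmomatic 0.36, HISAT2 2.1.0 and HTSeq 0.9.1 without a role. The soil file held 40 columns with no values, and 11690 genes of the medium file were not listed in soil. Samples were grouped by their labels, and the bisulfite libraries were not analysed here. The members and lists were chosen with earlier results of these data known.

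Differences were means of log2(CPM + 0.5) per genotype, each experiment alone. All genes that passed the count filter were tested with edgeR 4.0.16 in R 4.3.3 (filterByExpr, TMM, quasi-likelihood). Benjamini-Hochberg adjustment covered 20082 genes in soil and 20871 in medium, and genes above 2-fold at an adjusted p below 0.05 were called. For the members these calls were only counted. SEs were derived from that test. With 2 libraries per genotype in medium, precision there was lower, at a biological coefficient of variation of 0.106 against 0.039 in soil. P-values measure the spread between these libraries. The alternatives were DESeq2 1.42.0, other scaling, filters, pseudocounts and thresholds, the replicate block, and each library left out. Of 279 list entries, 264 were matched by name to RefSeq and the rest were left out of the list counts. All 56 loci were matched to TAIR10.1, whose sequence was used for promoters. Pairs of replicates differed by more than counting noise. The named genes were the 20 members with the largest smaller difference, members of response lists, 3 genes on each side of the threshold, and list genes called in both experiments, and other names given with values were chosen after their values were seen.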

Additional observations from a re-analysis of the deposited data

Results flagged for a closer look

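Outside the members, 2 response-list genes were called in opposite directions in soil and in medium, with every ibm1-1 library on the opposite side of Col-0 in the 2 experiments. The difference between the experiments was not tested. CYP94B3 had a log2 fold change of -2.65 in soil and 1.38 in medium. EXPA8 had a log2 fold change of 1.67 in soil and -1.48 in medium, the reverse order. The groups of 2 and 3 libraries were too small for a check of outlying samples.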

How the results depend on the processing

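No result changed direction under the alternatives run. The number of members was 11 at a threshold of 1 in place of 0.6, and from 47 to 83 under the other settings, with 78 genes under TMM-scaled library sizes, 83 at a threshold of 0.5 and 47 at a mean CPM of 5 or more. All 56 members were kept under TMM. With each of the 10 libraries left out in turn the number was 55 to 69, and 35 of the 56 members were kept every time. The median difference in soil was -1.08 under TMM against -0.97, and ranged from -0.97 to -0.93 with libraries left out, while that in medium ranged from 0.92 to 1.05. Among response-list genes outside the members, calls without the fold-change threshold were 86 lower and 91 higher in soil and 12 lower and 62 higher in medium. With the threshold and with libraries left out, calls were 30 to 32 lower and 36 to 39 higher in soil, and 1 to 7 lower and 37 to 42 higher in medium. The 7 lower calls in medium came without ibm1-1 replicate 2. DESeq2 called 32 and 39 in soil and 1 and 35 in medium.

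With the replicate number as a block, the fit gave 32 lower and 38 higher calls in soil and 1 and 44 in medium. The numbers share no stated batch, and deviations of libraries of the same number correlated at -0.017, 0.020 and 0.008 in soil and at 0.130 in medium, so the block is given here only. With 2 libraries per genotype in medium, a single library can decide a value there, as for COR15A.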
